A study of Mus musculus with 12 samples.

Results

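Ionotropic glutamate receptors of the AMPA and kainate classes were followed through 6 brain regions of mice lacking interleukin-18. The members were the 4 AMPA receptor subunits Gria1 to Gria4 and the 5 kainate receptor subunits Grik1 to Grik5, 9 genes in all, taken by name. Of these, 8 had at least 1 probe matched to a name, and they had 14 probes among 41174 gene probes, of which 22951 matched a name. Grik3 had no probe matched to its name and was not analysed here. All 8 passed the filter on dim probes, as did 25090 of 33390 genes and unnamed transcripts. For a subunit with several probes, the brightest on average stands for the gene unless another is named.

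The arrays held RNA of hippocampus, hypothalamus, striatum, amygdala, olfactory bulb and prefrontal cortex from IL-18-/- mice (KO) and from wild-type mice (WT), both labelled C57BL/6 and, per the study's design text, bred as F2 littermates from a cross of IL-18-/- with C57BL/6J mice. Interleukin-18 is a cytokine of the interleukin-1 family, and KO mice carry no functional copy of its gene in any cell. All were males of 12 weeks. RNA of 5 mice was pooled for each array, 400 ng of total RNA was labelled with Cy3, and each region and genotype had 1 array, 12 in all.

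AMPA receptors are tetrameric cation channels that carry most fast excitatory transmission, and the edited form of Gria2 keeps calcium out of channels that contain it. Kainate receptors are related tetramers found on both sides of the synapse. Grik1, Grik2 and Grik3 can each form a channel alone, whereas Grik4 and Grik5 raise the affinity for glutamate and need one of those as a partner. These receptors set synaptic strength and excitability in forebrain circuits, and kainate receptors with Grik4 are known from the mossy-fibre synapses of the hippocampus.

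Levels are given as log2 of the processed spot intensity minus the log2 of the array's 75th percentile, so 0 marks that percentile and 1 unit is a doubling. Probes differ in brightness for reasons unrelated to abundance, so a level was set only against the same probe on other arrays. The 75th percentile lay between 208 and 768 intensity units, lowest on the WT striatum array, and 60.8% to 81.3% of gene spots were well above background. Il18, the targeted gene, had levels of -4.35 to -3.12 on the KO arrays and 0.57 to 1.12 on the WT arrays (n = 6 each), so the genotype labels of all 12 arrays were borne out. Each region lay on a slide of its own, so region and slide cannot be told apart. Prefrontal cortex and hippocampus arrays were scanned on day 1 and all others on day 2. Differences between these sets of regions cannot be told apart from scan day. KO and WT arrays held the same places on every slide, so place and genotype cannot be told apart either. In whole tissue, fewer cells of a type and less RNA per cell cannot be told apart.

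The labels of 5 regions were checked against markers of each region, as the median level of a list minus each gene's mean over the 10 arrays outside the amygdala. In each of these regions its own list was higher than on any other array of the 10. The olfactory bulb list, for example, stood at 4.26 (KO) and 4.38 (WT), against at most -0.65 elsewhere. The amygdala arrays did not match each other. On the array labelled amygdala WT the hypothalamus markers stood at 4.59, close to 4.79 (KO) and 4.25 (WT) in hypothalamus, whereas on the amygdala KO array they stood at -0.32. Over the 14 subunit probes, the amygdala WT array differed from the hypothalamus WT array by a median of 0.063 log2 units, against 0.275 between the amygdala KO and hypothalamus KO arrays. Tests were therefore run on the 10 arrays of the other 5 regions, and the amygdala values are given as they were measured.

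Promoters are shown for 4 subunits whose levels set the regions apart below: Grik4 and Gria4, whose highest and lowest regions were exchanged, and Grik2 and Grik5, which were both highest in striatum. Promoters of 5 of the 9 subunits were matched in the RefSeq table of build GRCm38.p6, each 300 bases long, from 250 before the gene's start to 50 after it. All 4 genes lie on the minus strand, Grik4 at chr9:42944322-42944621, Gria4 at chr9:4796185-4796484, Grik2 at chr10:49788705-49789004 and Grik5 at chr7:25072320-25072619. Capitals mark the GC box GGGCGG, searched on both strands.
Grik4: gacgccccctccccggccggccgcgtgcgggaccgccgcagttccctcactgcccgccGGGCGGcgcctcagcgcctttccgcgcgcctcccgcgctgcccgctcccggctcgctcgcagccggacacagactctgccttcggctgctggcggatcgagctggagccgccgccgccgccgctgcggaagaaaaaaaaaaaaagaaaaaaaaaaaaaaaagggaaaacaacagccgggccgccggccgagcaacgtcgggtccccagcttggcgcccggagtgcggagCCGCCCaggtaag
Gria4: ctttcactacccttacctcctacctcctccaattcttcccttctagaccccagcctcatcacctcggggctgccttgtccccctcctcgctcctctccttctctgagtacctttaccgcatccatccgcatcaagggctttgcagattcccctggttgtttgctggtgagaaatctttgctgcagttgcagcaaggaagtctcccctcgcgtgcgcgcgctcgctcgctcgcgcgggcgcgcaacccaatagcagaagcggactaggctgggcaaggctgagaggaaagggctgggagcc
Grik2: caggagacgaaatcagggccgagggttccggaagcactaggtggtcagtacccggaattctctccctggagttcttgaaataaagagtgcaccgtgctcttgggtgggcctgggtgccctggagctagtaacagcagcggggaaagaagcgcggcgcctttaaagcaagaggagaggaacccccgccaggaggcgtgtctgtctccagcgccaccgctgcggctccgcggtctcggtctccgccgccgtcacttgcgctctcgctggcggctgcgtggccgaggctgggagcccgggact
Grik5: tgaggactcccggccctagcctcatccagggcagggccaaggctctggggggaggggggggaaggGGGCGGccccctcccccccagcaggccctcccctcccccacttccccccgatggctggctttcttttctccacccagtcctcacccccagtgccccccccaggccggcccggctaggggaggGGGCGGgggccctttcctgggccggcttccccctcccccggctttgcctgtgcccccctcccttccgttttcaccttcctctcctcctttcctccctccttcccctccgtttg
The Grik4 promoter held 2 GC boxes and the Grik5 promoter also 2, whereas Gria4 and Grik2 held 0, and 35.7% of 32851 mouse promoters of the same length held at least 1. TATAAA (in 13.6% of these promoters), TGACGTCA (1.79%) and CAGCTG (16.3%), also searched on both strands, were found in none of the 5 matched promoters. GC content was 70.0% for Grik4, 59.7% for Gria4, 64.7% for Grik2 and 72.0% for Grik5, against a median of 52.7% over all promoters. These matches describe the letters in the windows only.

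The first comparison asked how far each subunit depended on the region, as the mean of a region's 2 arrays minus the mean of the other 4 regions (limma, 10 arrays, genotype as a covariate, Benjamini-Hochberg adjustment over 25090 genes and transcripts). The amygdala is not among the other regions in this comparison. Regions differed widely in all genes, so a call alone says little. In olfactory bulb 6 of 8 subunits passed an adjusted p of 0.05, against 50% of all genes tested. Striatum had 6 of 8, against 65.8%, and hippocampus also 6 of 8, against 39.9%. Hypothalamus had 5 of 8, against 47.6%, and prefrontal cortex 4 of 8, against 42.5%. Of these 27 calls, 10 were also 2-fold or more. The 2-fold calls were 3 in striatum (21.7% of all genes), 3 in olfactory bulb (11.7%), 2 in hippocampus (7.57%), 1 in hypothalamus (7.02%) and 1 in prefrontal cortex (7.96%). All 10 belonged to Gria4, Grik1, Grik2, Grik4 and Grik5. They kept their direction and an adjusted p under 0.05 under each processing alternative, and their direction with any 1 array left out. Some fell below 2-fold under an alternative. These were Grik1 in olfactory bulb (log2 0.95), hypothalamus (0.93) and striatum (-0.97), Grik4 in prefrontal cortex (0.90) and Grik5 in striatum (0.90). Grik4 in prefrontal cortex also fell to 0.997 with 1 array left out. The other calls stayed at 2-fold or more. The range between the highest and lowest region had a median of 1.68 log2 units over the 8 subunits, against 1.07 over all genes tested, and 6 of 8 ranges were at least 1, against 54.9% of all genes.

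**Figure D1:**
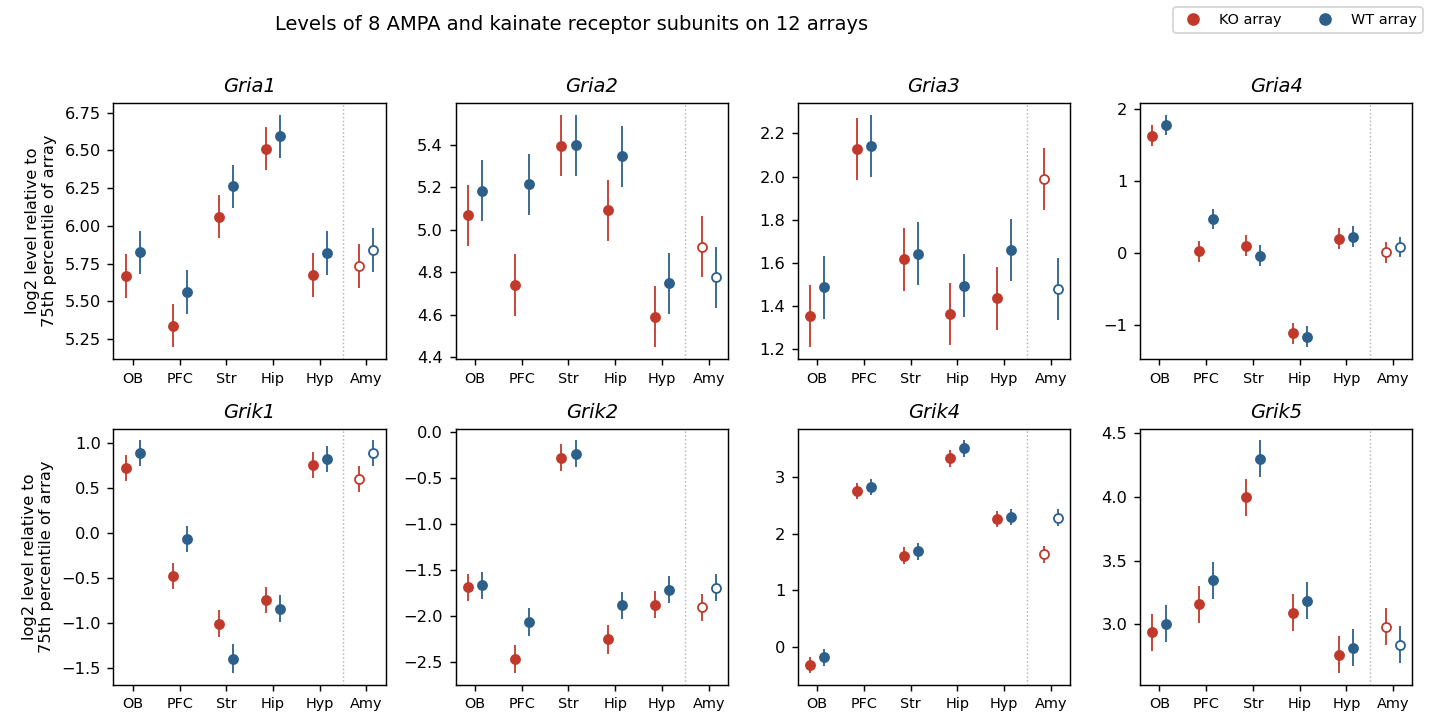
Log2 level relative to the array's 75th percentile (y axis, a scale of its own in each panel) for the brightest probe of 8 subunits in olfactory bulb (OB), prefrontal cortex (PFC), striatum (Str), hippocampus (Hip), hypothalamus (Hyp) and amygdala (Amy). Each point is 1 array, KO left of WT, bars are the scanner software's error of that spot, and hollow points mark the amygdala arrays kept out of the tests; Grik4 shows the widest range and Gria3 the narrowest.

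Grik4, a high-affinity kainate subunit, had the widest range of the 8. Its levels were 3.33 (KO) and 3.50 (WT) in hippocampus, 2.76 (KO) and 2.82 (WT) in prefrontal cortex, and 2.26 (KO) and 2.29 (WT) in hypothalamus. They were 1.61 (KO) and 1.68 (WT) in striatum and -0.32 (KO) and -0.19 (WT) in olfactory bulb. The 5 regions did not overlap, and all 10 pairs of regions differed (largest adjusted p between neighbours 0.0058). Hippocampus was 3.48-fold above the mean of the other 4 regions (log2 1.80, SE 0.06, adjusted p = 7.9e-05). Olfactory bulb was 6.89-fold below it (log2 -2.78, SE 0.06, adjusted p = 8.4e-06). Hippocampus and olfactory bulb lay 12.7-fold apart, a range wider than in 97.7% of all genes tested. Prefrontal cortex was 2.02-fold above the other regions (adjusted p = 2.4e-04). Grik4 was also lower in striatum (log2 -0.41) and higher in hypothalamus (0.37), although the hypothalamus call was lost without the KO hypothalamus array (0.34, adjusted p = 0.057) and with all 12 arrays (0.36, adjusted p = 0.060).

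Grik5, the other high-affinity kainate subunit, had another pattern. Its levels were 4.0 (KO) and 4.30 (WT) in striatum and between 2.76 and 3.34 on the 8 arrays of the other regions, with no overlap. Striatum was 2.16-fold above the mean of the others (log2 1.11, SE 0.07, adjusted p = 9.7e-05). The other 4 regions formed a row in which no neighbours differed (adjusted p 0.14 to 0.40). Regions further apart in it did differ. Prefrontal cortex was above hypothalamus (0.46, adjusted p = 0.015) and hippocampus was above hypothalamus (0.35, adjusted p = 0.029). Olfactory bulb was below prefrontal cortex (-0.28, adjusted p = 0.044). Hypothalamus, at the end of that row, was lower than the mean of the other regions (log2 -0.59, SE 0.07, adjusted p = 0.0022). Olfactory bulb was lower too (-0.36, adjusted p = 0.0082), but not with quantile normalization (-0.056, adjusted p = 0.48), nor without its WT array (-0.32, adjusted p = 0.10) or its KO array (-0.41, adjusted p = 0.053).

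Grik2, a subunit that can form channels alone, was also highest in striatum. It had -0.28 (KO) and -0.24 (WT) there, against -2.46 to -1.67 on the 8 arrays of the other regions. Striatum was 3.23-fold above the others (log2 1.69, SE 0.10, adjusted p = 7.4e-05). Prefrontal cortex, with -2.46 (KO) and -2.06 (WT), was 1.76-fold below the others (log2 -0.81, adjusted p = 0.0019). Hippocampus, with -2.25 (KO) and -1.88 (WT), was 1.48-fold below (log2 -0.57, adjusted p = 0.0078), a call lost without its KO array (-0.46, adjusted p = 0.089). Over the 10 arrays Grik2 and Grik5 had a Pearson r of 0.81, a description of arrays that share regions and slides. Striatum arrays were the dimmest, and 6 of 9 oligodendrocyte markers were higher there, against 35.8% of all genes (list median 0.76, all genes 0.048). In hippocampus, where Grik2 was lower, 9 of 9 of these markers were higher, against 24.2% of all genes (list median 0.79, all genes 0.080). Whether dimness or these markers bear on Grik2 or Grik5 was not tested.

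Grik1, another subunit that can form channels alone, divided the regions otherwise. It had 0.72 (KO) and 0.88 (WT) in olfactory bulb and 0.75 (KO) and 0.82 (WT) in hypothalamus. It had -0.48 (KO) and -0.06 (WT) in prefrontal cortex, -0.75 (KO) and -0.84 (WT) in hippocampus and -1.01 (KO) and -1.40 (WT) in striatum, with no overlap between the higher pair of regions and the others. Olfactory bulb and hypothalamus did not differ (difference 0.015, SE 0.19, adjusted p = 0.95), and each was above the mean of the other regions, 2.26-fold (adjusted p = 0.0015) and 2.23-fold (adjusted p = 0.0026). Striatum was 2.52-fold below it (log2 -1.34, SE 0.15, adjusted p = 5.7e-04). Hippocampus was lower by this probe (-0.82, adjusted p = 0.0091), but the call was lost without its WT array (-0.74, adjusted p = 0.086) and without its KO array (-0.90, adjusted p = 0.063). The second probe, A_52_P660400, was not well above background on either striatum array. Set against the lowest signal well above background on those arrays, it was 4.02-fold higher in hypothalamus and 3.13-fold higher in olfactory bulb. These are not firm lower limits, since a spot brighter than that signal can also fail to be well above background. The limma fit of striatum against the others (adjusted p = 3.2e-05) used the measured dim values and does not test these folds.

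Gria4 was the AMPA subunit with the widest range. Its brightest probe, A_52_P279527, had 1.62 (KO) and 1.77 (WT) in olfactory bulb, against -1.11 (KO) and -1.16 (WT) in hippocampus and -0.04 to 0.47 on the arrays of the other 3 regions. Olfactory bulb was 3.63-fold above the mean of the others (log2 1.86, SE 0.12, adjusted p = 1.2e-04). Hippocampus was 3.21-fold below it (log2 -1.68, SE 0.12, adjusted p = 4.3e-04). Prefrontal cortex, hypothalamus and striatum lay between them and their neighbours did not differ (adjusted p 0.32 to 0.88). Gria4 is known from fast-spiking inhibitory interneurons, and all 4 markers of GABA neurons were higher in olfactory bulb (list median 0.72), where 22.5% of all genes were called higher. All 4 were lower in hippocampus (list median -0.83), where 15.7% of all genes were called lower. Their list level was 0.60 (KO) and 0.59 (WT) in olfactory bulb and -0.76 (KO) and -0.57 (WT) in hippocampus. In prefrontal cortex it was also low, -0.52 (KO) and -0.59 (WT), but the brightest Gria4 probe was not called there (log2 0.046, adjusted p = 0.78). The list stood at 0.14 (KO) and 0.25 (WT) in striatum and 0.22 (KO) and 0.16 (WT) in hypothalamus, where this probe was not called either. The part of these markers in the Gria4 differences was not tested. Over the 10 arrays Gria4 and Grik4 had a Pearson r of -0.90, again over arrays that share regions and slides.

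**Figure D2:**
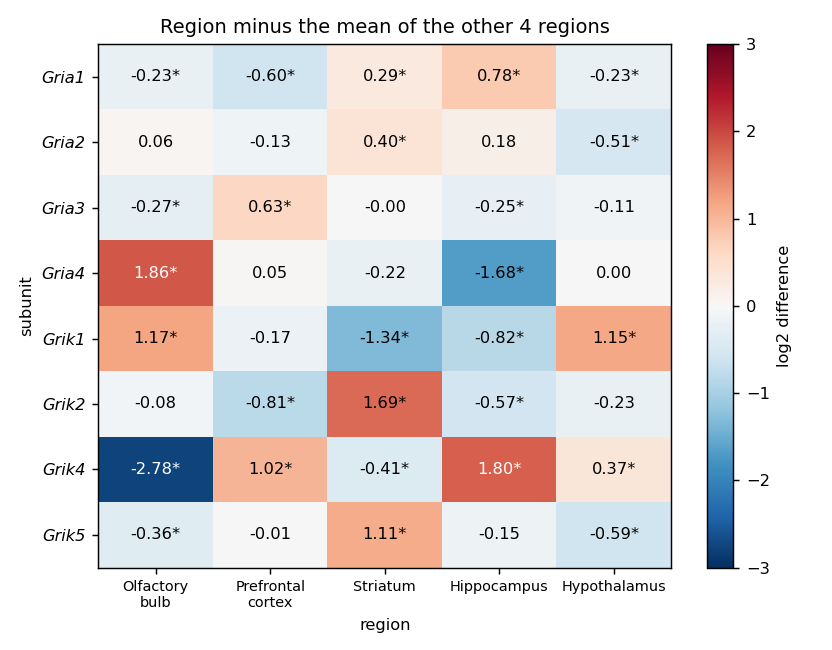
Log2 difference between each region and the mean of the other 4 (columns) for 8 subunits (rows), from 10 arrays, with red for higher and blue for lower and an asterisk where the adjusted p was under 0.05. Grik4 is lowest in olfactory bulb (-2.78) and highest in hippocampus (1.80), Gria4 the reverse (1.86 and -1.68), and Grik2 and Grik5 are highest in striatum (1.69 and 1.11).

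The other AMPA subunits varied less. Gria1, a subunit of receptors that are inserted during long-term potentiation, had 6.51 (KO) and 6.59 (WT) in hippocampus, against 5.34 to 6.26 on the arrays of the other regions. Hippocampus was 1.71-fold above the mean of the others (log2 0.78, SE 0.06, adjusted p = 5.8e-04). Prefrontal cortex, with 5.34 (KO) and 5.56 (WT), was 1.52-fold below it (log2 -0.60, adjusted p = 0.0010). The second Gria1 probe, A_51_P498031, was also highest in hippocampus, 3.14 (KO) and 3.16 (WT), with 1.21 (SE 0.07, adjusted p = 3.0e-04), and also lower in prefrontal cortex (-0.69). It was lowest in striatum, however, at 1.59 (KO) and 1.40 (WT).

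The brightest Gria1 and Gria2 probes were higher in striatum (0.29 and 0.40, adjusted p = 0.0066 and 0.013), but their second probes were lower there (-0.86 and -0.57). The second Gria2 probe was not well above background on the WT striatum array, 1 of the 2, so its size there is uncertain. Bright genes as a class were higher in striatum: the median over the 1063 genes with a mean level of 4 or more was 0.34, and in olfactory bulb it was -0.41. With quantile normalization the Gria1 values were -0.19 in striatum and 0.23 in olfactory bulb, where it was -0.23 otherwise. The smaller Gria1 calls were also lost when an array of the region was left out, in olfactory bulb without WT (-0.23, adjusted p = 0.15) or KO (-0.24, adjusted p = 0.14) and in hypothalamus without WT (-0.22, adjusted p = 0.16) or KO (-0.24, adjusted p = 0.12), or without the WT or KO olfactory bulb array (-0.23 each, adjusted p = 0.057 and 0.058). No order of Gria1 or Gria2 between striatum and the regions near it is therefore given. The Gria2 call in striatum was also lost without the KO striatum array (0.28, adjusted p = 0.11).

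Gria2, the subunit whose editing controls calcium entry, had 4.59 (KO) and 4.75 (WT) in hypothalamus, against 4.74 to 5.40 on the arrays of the other regions, so the groups overlapped by the KO prefrontal cortex array. Hypothalamus was 1.42-fold below their mean (log2 -0.51, SE 0.10, adjusted p = 0.0089). This call was lost without the WT hypothalamus array (-0.48, adjusted p = 0.086), without the KO one (-0.54, adjusted p = 0.063), and by the second probe (-0.21, adjusted p = 0.12). No neighbours in the order of its 5 regions differed by the brightest probe, although 4 of 10 pairs of regions did. Hippocampus was above hypothalamus (0.55, adjusted p = 0.019), as was olfactory bulb (0.46, adjusted p = 0.025). The other called pairs involved striatum, where the Gria2 probes disagreed.

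Gria3, an X-linked AMPA subunit, was highest in prefrontal cortex with both probes. The brightest probe had 2.13 (KO) and 2.14 (WT) there, against 1.35 to 1.66 in the other regions, 1.55-fold above the other regions (log2 0.63, SE 0.07, adjusted p = 0.0013). The second probe, A_52_P179309, had -0.023 (KO) and 0.025 (WT) there, against -1.90 to -0.47 elsewhere, with a difference of 1.21 (SE 0.12, adjusted p = 0.0010). The probes disagreed on hypothalamus (-0.11 and 0.50) and striatum (-0.0034 and -1.04). The lower values of the brightest probe in olfactory bulb (-0.27) and hippocampus (-0.25) were close to these with all 12 arrays (-0.28 and -0.26), but there the SE was larger and the calls were lost (adjusted p = 0.12 and 0.16). The olfactory bulb call was also lost without its WT array (-0.28, adjusted p = 0.12) or its KO array (-0.25, adjusted p = 0.15), and the hippocampus call without its WT array (-0.27, adjusted p = 0.14) or its KO array (-0.24, adjusted p = 0.18). The hippocampus call was lost as well without the WT olfactory bulb array (-0.25, adjusted p = 0.069), the KO one (-0.26, adjusted p = 0.065) or the WT hypothalamus array (-0.24, adjusted p = 0.052).

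**Figure D3:**
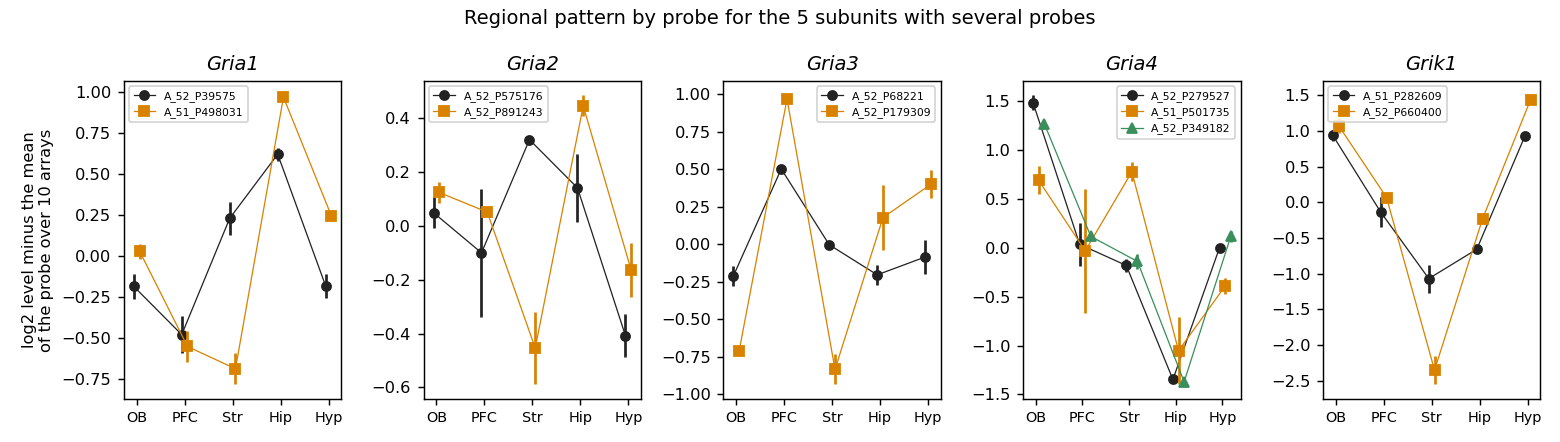
Regional pattern of every probe of the 5 subunits with several probes, as the region mean minus the probe's mean over 10 arrays (y axis, log2), with bars from the lower to the higher of a region's 2 arrays and regions abbreviated as olfactory bulb (OB), prefrontal cortex (PFC), striatum (Str), hippocampus (Hip) and hypothalamus (Hyp). Probes of Gria1 and Gria2 part in striatum, and 1 of 3 Gria4 probes is high there while all 3 are lowest in hippocampus; the 2nd Grik1 probe in striatum and the WT array of the 2nd Gria2 probe there were not well above background.

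The 3 Gria4 probes agreed on hippocampus, where the differences were -1.68, -1.32 and -1.71, and on olfactory bulb, where they were 1.86, 0.87 and 1.59. In striatum probe A_51_P501735 was higher (0.97, SE 0.22, adjusted p = 0.0093), whereas the other probes gave -0.22 and -0.17, neither past the threshold. The files used here give no probe sequences, so which transcripts each probe reads was not tested.

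Of the 27 region calls, 17 were under 2-fold, and 6 of these kept their call and direction under each alternative and with any 1 array left out. They were Gria1, Gria3 and Grik2 in prefrontal cortex, Gria1 in hippocampus, Grik4 in striatum and Grik5 in hypothalamus. In all, 10 calls were lost when some single array was left out.

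The second comparison asked whether loss of interleukin-18 altered these receptors. No subunit passed the threshold: 0 of 8 were called for KO minus WT over 5 regions (limma, region as a covariate), against 0.00399% of all genes tested, which was Il18 alone. At an unadjusted p under 0.05 there were 4 of 8, against 18.1% of all genes. Adjusted p values ran from 0.21 to 0.90, and the count was 0 under each alternative too. With either scan day alone, 0 of all genes were called, not even Il18, so those settings decide nothing. The p values of this comparison measure likeness across regions, whose pools may share mice, and not the spread between mice.

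The brightest probes of all 8 subunits had slightly lower mean levels in KO, as did 53.8% of all genes tested. The log2 differences were -0.20 to -0.033 with a median of -0.12, against -0.014 over all genes. The 95% intervals of these brightest probes reached from -0.39 (Gria2) to 0.26 (Grik1). They measure the spread across regions and set no limit for other probes or between mice. Gria4 probe A_51_P501735, for example, had a mean difference of -0.52. Gria2 had the largest difference, -0.20 (SE 0.08, 1.15-fold, adjusted p = 0.27), with lower KO values in 5 of 5 regions. Gria1 had -0.16 (SE 0.05, adjusted p = 0.21), also in 5 of 5, and Grik2 -0.20 (SE 0.08, adjusted p = 0.27), in 5 of 5. The 6 other probes of the same genes did not share the direction: 3 were lower and 3 higher in KO. Of all 14 probes 0 were called, against 0.00959% of 31291 probes tested, and 4 had an unadjusted p under 0.05, against 19.7%. For Gria1 the second probe gave 0.090 (SE 0.06) and for Gria2 0.050 (SE 0.08). With the prefrontal cortex arrays left out, 6 of 8 brightest probes were lower in KO.

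**Figure D4:**
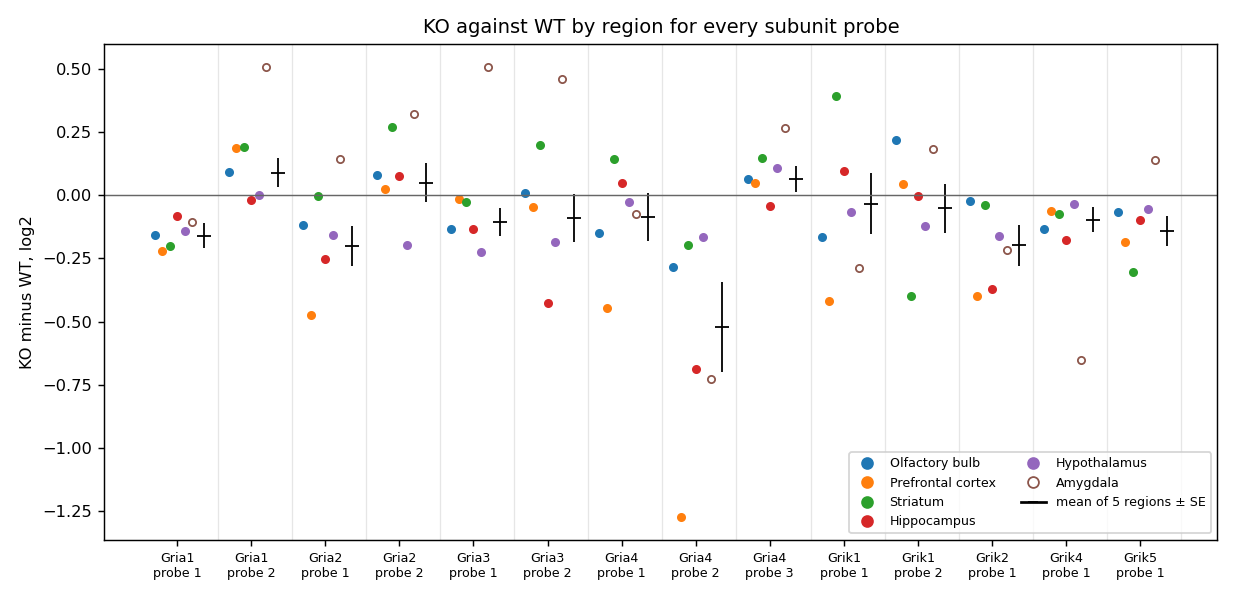
KO minus WT (y axis, log2) for all 14 probes of 8 subunits, with 1 point per region, hollow for amygdala, and a black bar for the mean of the 5 other regions with its SE. Most points lie within 0.5 of 0, and the 2nd Gria4 probe is lower in KO in each region, down to -1.27 in prefrontal cortex. The amygdala arrays did not match each other in region markers.

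Within single regions there was 1 KO and 1 WT array, so no test was possible. Of 84 differences between probes and regions, 56 were lower in KO, and 1 was 2-fold or more. These include the amygdala arrays and several probes of the same genes. Over all genes the median difference ran from -0.061 (prefrontal cortex) to 0.022 (striatum). The 2-fold difference was that of Gria4 probe A_51_P501735 in prefrontal cortex, with -0.86 on the KO array and 0.41 on the WT array (-1.27). Among all genes, the share that differed by 2-fold or more was 4.33% in prefrontal cortex, 0.924% in olfactory bulb, 1.56% in striatum, 1.75% in hippocampus, 0.987% in hypothalamus and 6.86% in amygdala. Probe A_51_P501735 was lower in KO in 5 of 5 regions outside the amygdala. It was lower in amygdala too (-0.73), where the arrays did not match each other in region markers. Its mean over the 5 regions was -0.52 (SE 0.18, unadjusted p = 0.026 by limma, adjusted p = 0.21). The other Gria4 probes gave -0.086 and 0.065. Gria4 and Grik4 lie on chromosome 9, as does Il18, with 317 and 73 tested genes between them and it, and whether linked DNA of another strain differs there was not tested.

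In amygdala, where the arrays did not match each other, Gria3 was 0.51 higher in KO by the brightest probe and 0.46 by the second, and Grik4 was 0.65 lower. Against hypothalamus KO, the amygdala KO array was 0.55 and 0.56 higher for these Gria3 probes and 0.62 lower for Grik4. Against hypothalamus WT, the amygdala WT array differed by -0.18 and -0.080 for the Gria3 probes and by -0.0078 for Grik4. Regional makeup and genotype cannot be told apart for these values.

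Genes that work with the receptors were read from 5 lists with 38 entries, of which 31 were tested. For KO minus WT 0 of 31 were called, 17 were lower, and the lowest adjusted p was 0.20. Between regions they had a median range of 1.58 log2 units, against 1.07 over all genes, and genes of the widest range in each list are named here, at most 4 a list.

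Among 10 tested AMPA receptor auxiliary subunits, Cacng5, one of the transmembrane regulatory proteins, was highest in olfactory bulb, with 3.05 (KO) and 3.20 (WT), against -1.19 to 0.60 elsewhere (log2 3.37, adjusted p = 9.4e-06). In olfactory bulb 1 of the 10 was higher and 4 lower, against 22.5% and 27.5% of all genes. In hippocampus 5 were higher and 0 lower, against 24.2% and 15.7%. Cnih2, a cornichon that slows AMPA receptor closing, was highest in hippocampus at 6.25 (KO) and 6.31 (WT), with a difference of 1.59 (adjusted p = 8.7e-05), and lowest in olfactory bulb (-1.67). Shisa7 was higher in striatum (1.75) and lower in olfactory bulb (-1.56), and Cnih3 was higher in prefrontal cortex (1.30) and lower in striatum (-1.93).

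The kainate list held the largest differences. C1ql3, a secreted protein that binds kainate receptors at mossy-fibre synapses, had 2.75 (KO) and 3.14 (WT) in prefrontal cortex, against -2.75 (KO) and -2.77 (WT) in olfactory bulb. Its olfactory bulb difference was -4.25 (adjusted p = 8.0e-05), in the same direction as that of Grik4. C1ql2, a related protein, had 1.29 (KO) and 0.99 (WT) in hippocampus, against -3.60 to -1.19 elsewhere, a difference of 3.82 (SE 0.45, adjusted p = 0.0023). Neto1, an auxiliary subunit of kainate receptors, was higher in striatum (0.89, adjusted p = 6.2e-04) and lower in hypothalamus (-0.66).

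Among 13 scaffold and trafficking genes, Nptxr and Nptx1 encode pentraxins that cluster AMPA receptors. Nptxr was highest in prefrontal cortex, with 4.17 (KO) and 4.13 (WT). It was also higher in hypothalamus (1.48) and hippocampus (1.20), and lower in striatum (-2.78) and olfactory bulb (-1.91). Nptx1 had -1.20 (KO) and -1.36 (WT) in hippocampus, against -4.47 (KO) and -4.70 (WT) in olfactory bulb. It was not well above background on either striatum array. Its hippocampus level was 6.38-fold above the lowest signal well above background on those arrays, which is not a firm lower limit. The limma fit of striatum against the others (adjusted p = 3.1e-05) used the measured dim values and does not test this fold. Nsf, an ATPase that binds Gria2, was higher in hippocampus (0.94) and lower in olfactory bulb (-1.08). Abhd6, which limits delivery of AMPA receptors to the surface, was lower in striatum (-1.83). In striatum 4 of the 13 were higher and 6 lower, against 35.8% and 30.0% of all genes.

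Of 3 genes of the RNA editing enzyme family, Adarb1, which edits the Gria2 transcript, was higher in olfactory bulb (0.77, adjusted p = 6.7e-04). It was lower in hypothalamus (-0.61, adjusted p = 0.0026). Adarb2 was higher in olfactory bulb (1.17) and lower in striatum (-1.81), where 1 of the 2 arrays was not well above background, and Adar was lower in hippocampus (-0.62). Editing itself was not measured. Grid1, a delta receptor related to AMPA and kainate subunits, was higher in striatum (1.14) and lower in olfactory bulb (-0.77).

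**Figure D5:**
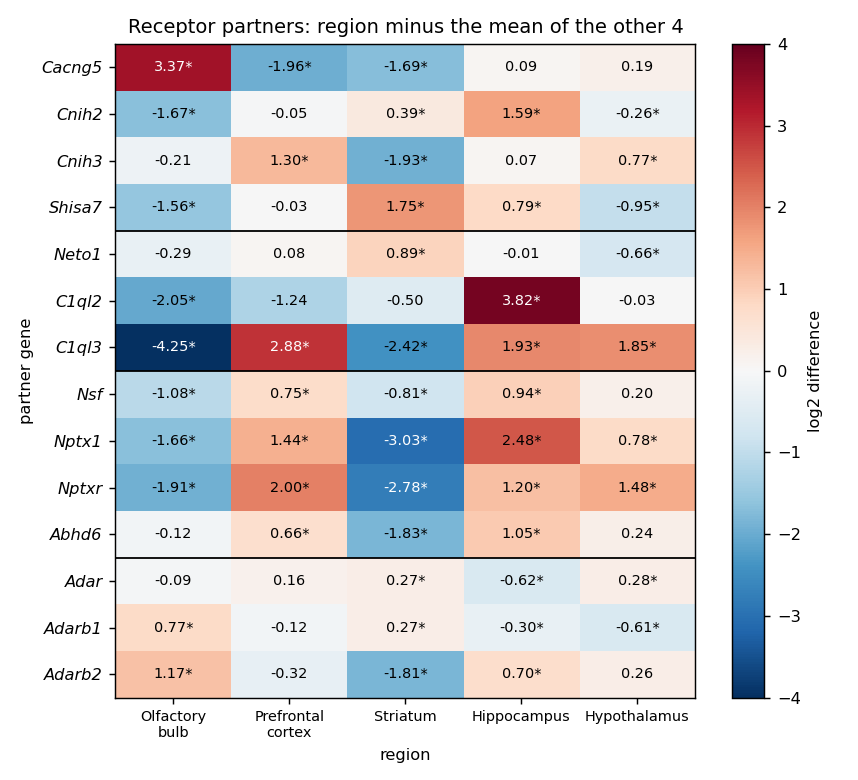
Log2 difference between each region and the mean of the other 4 (columns) for 14 receptor partner genes (rows, with black lines between the 4 lists shown), from 10 arrays, red for higher and blue for lower, with an asterisk where the adjusted p was under 0.05. Both striatum arrays of Nptx1 were not well above background, which enters all its differences; C1ql3 is lowest in olfactory bulb (-4.25), C1ql2 highest in hippocampus (3.82) and Cacng5 highest in olfactory bulb (3.37).

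The genes whose levels over the 10 arrays were most like each subunit were ranked by Pearson r among 11829 named genes above background on all 10. These correlations describe arrays that share regions and slides. For Grik4 they were Mmd, Tmem114 and Ifngr2 (r = 0.99 for each). For Grik5 they were Ctdnep1, Tbc1d13 and Cnppd1 (0.99 for each), and for Grik2 Rad9a, Lipo3 and Ppp1r7 (0.99 for each). For Grik1 they were Sfrp2 (0.99), Ugdh (0.98) and Parp11 (0.98). For Gria4 they were Mest (0.98), Pxk (0.98) and Dnmt1 (0.97). For Gria3 they were Pamr1 (0.97), Tshz3 (0.97) and Sytl2 (0.96). For Gria1 they included Ppl (0.97) and Elovl7 (0.96), and for Gria2 they were Arhgap17 (0.98), Fbrsl1 (0.97) and Olfr1356 (0.95). The range of region means of these genes ran from 0.62 (Tbc1d13) to 3.39 (Tmem114).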

How the data were processed

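The 12 samples were 1-colour arrays, 1 per region and genotype. Per the file headers, Agilent Feature Extraction 9.5.3.1 produced each deposited spot intensity, subtracting background and removing spatial trends. A second deposited table gives the authors' ratio of KO over WT per probe, and its log2 differed from the within-region values here by at most 0.014 over 48 values. Probes were named by matching accessions to RefSeq.

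Log2 processed intensity was scaled to each array's 75th percentile, repeat spots were averaged, and control and outlier spots were left out. The brightest probe stood for a gene, if well above background on at least 5 of 10 arrays. Tests used limma 3.58.1 in R 4.3.3 with Benjamini-Hochberg adjustment, at an adjusted p of 0.05, and the script was tested on simulated data. Tables used Python 3.11.15, pandas 2.3.3 and numpy 2.4.6. All subunits were reported, with the 4 partners of widest range per list and 3 like genes per subunit. Some genes these rules chose are not reported here. The members and lists were chosen with earlier results of these data known. The number of arrays limits the precision. Alternatives were median scaling, quantile normalization, normexp background correction, other dim-probe filters, other probes, another variance model, other array sets and scan days. The amygdala arrays were left out of the main tests.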

Additional observations from a re-analysis of the deposited data

Results flagged for a closer look

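Gria3 probe A_52_P179309 was 0.46 higher on the KO array than on the WT array of amygdala and 0.43 lower (log2 -0.43) in hippocampus, opposite directions that each exceeded the errors of the spots. The difference between these regions was not tested, since each had 1 array per genotype, and the amygdala arrays did not match each other in their region markers.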

How the results depend on the processing

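The 0 of 8 calls for KO against WT held under each alternative. Scan day 1 and scan day 2 alone were chosen after seeing the data, as was normexp on the median signals. Each scan day alone called 0 of all genes, not even Il18, so neither could show whether a subunit changed. Among all genes that comparison called 1, but 2 with median scaling, 11 with normexp, 14 with trend and robust variance, 10 with 12 arrays and 5 with probes above background on every array. Leaving out 1 region gave 0 to 0 called subunits. Leaving out 1 array gave 3 to 6 in olfactory bulb, 4 to 4 in prefrontal cortex, 5 to 7 in striatum, 3 to 6 in hippocampus and 2 to 5 in hypothalamus. With 12 arrays hypothalamus had 3.

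Some smaller region differences reversed. Under quantile normalization Gria1 had 0.23 in olfactory bulb and -0.19 in striatum. With the mean of all probes, Gria1 had -0.29 in striatum and 0.037 in hypothalamus, and Gria2 had -0.084 in striatum. Second probes gave Gria1 0.037 in olfactory bulb, -0.86 in striatum and 0.30 in hypothalamus, Gria2 -0.57 in striatum (not well above background on its WT array), and Gria3 0.22 in hippocampus and 0.50 in hypothalamus. Gria4 probe A_51_P501735 gave 0.97 in striatum. The cause was not tested.

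Median scaling moved the median of all genes in prefrontal cortex to 0.12 (main -0.023), in olfactory bulb to -0.11 (main -0.0016), in hypothalamus to -0.0069 (main -0.15) and in hippocampus to -0.028 (main 0.080), and normexp moved striatum to 0.41 (main 0.048), olfactory bulb to -0.15 and hippocampus to -0.048. The share of higher calls under median scaling was 35.1% in olfactory bulb (main 45.0%), 68.4% in prefrontal cortex (50.4%), 43.3% in hippocampus (60.7%) and 55.4% in hypothalamus (37.9%). With normexp it was 31.0% in olfactory bulb, 74.8% in striatum (main 54.4%), 41.9% in hippocampus and 26.6% in hypothalamus.

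The planned normexp on mean signals was not run, since the files used here hold median signals. No paired analysis was possible because of missing replicate numbers in the labels, other than pairing by region, which the KO against WT fit holds as a covariate.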
